A study of Mus musculus with 2 samples.

Results

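The 37 genes described here are induced by interferons, and they were chosen by symbol from the 32285 genes of 2 single-cell count matrices of mouse pancreatic islets. They fall into 14 GTPases of the Gbp and Irg families, 9 genes of the Ifit, Oas and Irf families, and 14 other interferon-induced genes. All 37 are listed in both matrices. The islets came from NOD mice, a strain that develops autoimmune diabetes, which were 5 weeks old when the diets began and were fed for 5 weeks. The mice of one library were fed HAMS, a maize starch rich in amylose. Those of the other were fed HAMSAB, which is that starch carrying acetate and butyrate. How many mice a library holds, and their sex, are not stated in the labels. With 1 library per diet no difference could be tested against the spread between animals, so every interval below covers counting error only.

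Interferons are secreted when cells sense infection or when activated lymphocytes meet antigen. Type I interferons act through the receptor chains Ifnar1 and Ifnar2 and a factor complex that holds Stat2 and Irf9 and binds the interferon-stimulated response element (ISRE). Interferon gamma, the type II interferon of T and NK cells, acts through Ifngr1 and Ifngr2 and leads to factor binding at the gamma-activated site (GAS). Gbp and Irg GTPases coat and disrupt the vacuoles of intracellular pathogens and respond strongly to interferon gamma. Ifit proteins bind viral RNA, and Oas proteins sense double-stranded RNA. Irf1, Irf7 and Irf9 are transcription factors that pass on or amplify the response. In the islets of NOD mice, interferon signatures and infiltrating lymphocytes accompany the approach of diabetes.

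The GTPase genes lie in tandem groups in GRCm38 (GENCODE vM21). Gbp5, Gbp7, Gbp3 and Gbp2 follow each other on chromosome 3 between 142493978 and 142638008, and Gbp4 and Gbp6 lie on chromosome 5. Irgm1, Tgtp2 and Ifi47 lie on chromosome 11 between 48861968 and 49096974, and Igtp and Irgm2 lie on the same chromosome in gene models that overlap (58199556 to 58207591 and 58199618 to 58222782, both on the plus strand). The paralogs within these groups, the pair of Ifit3 and Ifit3b on chromosome 19, and the overlapping Igtp and Irgm2 share sequence, so reads could be split or lost between them and their single values are uncertain.

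RefSeq promoter windows of GRCm38.p6 were matched to 25 of the 37 genes. No window was searched for F830016B08Rik, Gbp4, Gbp6, Gm4841, Ifi204, Ifi27, Iigp1, Ly6e, Parp14, Rtp4, Usp18 and Zbp1. The 250 bases before each start were searched on both strands for an ISRE core (GAAANNGAAA) and a GAS core (TTCNNNGAA, which is its own reverse complement). The ISRE core was present in 16 of 29 windows of the 25 genes, against 2.98% of all 32851 windows. For the GAS core the count was 9 of 29 windows, against 7.02% of all windows. Among the 10 windows of 9 GTPase genes, 8 held the ISRE core and 5 held both cores. Of all 32851 windows, 109 held both. A match is a description of letters and not evidence of binding.

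The promoters shown are those of some GTPases whose levels are followed below or whose motifs share a layout, with Isg15 and Ifit1 beside them. Capitals mark the matched cores. In Igtp, Irgm2 and Tgtp2 the GAS core begins 11 bases before the ISRE core. In Gbp7 the ISRE core begins 53 bases before the start and the GAS cores begin 106 and 87 bases before it. Overlapping ISRE cores, with no GAS core, are seen in Gbp3 and Isg15, and also in Irgm1, whose promoter is not shown.
Gbp7 (chr3:142530086-142530335, plus strand): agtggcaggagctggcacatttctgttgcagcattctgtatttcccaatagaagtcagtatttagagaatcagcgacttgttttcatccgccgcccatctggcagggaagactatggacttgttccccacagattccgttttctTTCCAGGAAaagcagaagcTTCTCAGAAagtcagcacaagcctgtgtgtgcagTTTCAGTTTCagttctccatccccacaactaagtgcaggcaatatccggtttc
Gbp3 (chr3:142559794-142560043, plus strand): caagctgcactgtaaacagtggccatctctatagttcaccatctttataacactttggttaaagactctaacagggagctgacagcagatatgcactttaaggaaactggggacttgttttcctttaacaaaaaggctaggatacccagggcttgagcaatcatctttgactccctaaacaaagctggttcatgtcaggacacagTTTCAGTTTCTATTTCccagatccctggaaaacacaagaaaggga
Igtp (chr11:58199306-58199555, plus strand): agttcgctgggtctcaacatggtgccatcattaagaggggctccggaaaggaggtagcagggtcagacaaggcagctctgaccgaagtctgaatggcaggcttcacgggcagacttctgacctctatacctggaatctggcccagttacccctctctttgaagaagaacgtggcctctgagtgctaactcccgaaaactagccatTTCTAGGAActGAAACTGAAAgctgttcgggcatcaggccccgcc
Irgm2 (chr11:58214727-58214976, plus strand): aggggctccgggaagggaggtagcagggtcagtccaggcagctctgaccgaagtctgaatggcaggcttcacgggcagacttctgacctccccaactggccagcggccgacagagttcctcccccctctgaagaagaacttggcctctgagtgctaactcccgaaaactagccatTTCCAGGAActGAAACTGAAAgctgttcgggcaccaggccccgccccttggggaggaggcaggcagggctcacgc
Tgtp2 (chr11:49064213-49064462, minus strand): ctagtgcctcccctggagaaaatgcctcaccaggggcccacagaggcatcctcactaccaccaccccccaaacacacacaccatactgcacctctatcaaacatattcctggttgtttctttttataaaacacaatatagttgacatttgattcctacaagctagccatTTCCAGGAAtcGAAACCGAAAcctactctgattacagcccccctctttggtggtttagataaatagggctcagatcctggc
Isg15 (chr4:156200819-156201068, minus strand): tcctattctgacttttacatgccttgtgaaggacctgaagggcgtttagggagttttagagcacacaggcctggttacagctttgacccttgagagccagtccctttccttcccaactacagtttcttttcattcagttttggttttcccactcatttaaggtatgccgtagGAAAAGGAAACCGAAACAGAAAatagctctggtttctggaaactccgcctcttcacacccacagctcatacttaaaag
Ifit1 (chr19:34640639-34640888, plus strand): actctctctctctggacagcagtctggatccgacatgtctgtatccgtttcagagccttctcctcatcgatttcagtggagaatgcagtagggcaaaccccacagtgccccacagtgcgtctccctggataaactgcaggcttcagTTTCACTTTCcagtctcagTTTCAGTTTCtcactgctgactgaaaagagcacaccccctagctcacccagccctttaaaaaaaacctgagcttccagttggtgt

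After filtering, 4185 HAMS and 4628 HAMSAB cells remained, with a median of 704 and 705 UMIs (unique molecular identifiers, counts of captured RNA molecules) per cell. The 37 genes together held 11494 UMIs in HAMS (0.325% of all) and 10889 in HAMSAB (0.266%). Cells were clustered with these genes and other interferon genes left out, and a cluster was called X-like from fixed markers. This gave 1362 HAMS and 733 HAMSAB beta-like cells (clusters 4 and 10), 551 and 310 alpha-like, 437 and 338 delta-like, 75 and 182 ductal-like, 62 and 28 endothelial-like, 292 and 393 macrophage-like, 131 and 195 cDC-like (conventional dendritic), 34 and 68 pDC-like (plasmacytoid dendritic), 312 and 698 T-like, 193 and 644 B-like and 21 and 61 plasma-like cells. Cluster 5, with 715 and 969 cells led by Il1r2 and Ifitm1, stayed unnamed, and 9 acinar-like cells, all from HAMSAB, were not compared. The alpha-like class includes cluster 2, led by Ppy and Pyy, and the endothelial-like class had the fibroblast genes Col1a1 and Dcn among its leading genes. Of all barcodes 6 were shared by the libraries.

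RNA of beta cells was found in every class and differed between the libraries. Ins1 and Ins2 together stood at 28626 CPM (counts per 1000000 UMIs of the class) in HAMS and 1417 CPM in HAMSAB endothelial-like cells, at 6504 and 1168 CPM in alpha-like, at 9935 and 1666 CPM in pDC-like, at 4060 and 1392 CPM in ductal-like and at 977 and 2405 CPM in B-like cells. In beta-like cells, 9 immune markers (Ptprc, Cd52, Coro1a, Lyz2, Cd79a, Cd3e, Laptm5, Tyrobp and Fcer1g) summed to 85.9 CPM in HAMS and 105 CPM in HAMSAB. T cell markers summed to 23.5 and 16.3 CPM there, and macrophage markers to 28.9 and 39.5 CPM. The part of such RNA in the values below was not tested.

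GTPase RNA was most abundant in endothelial-like, beta-like and ductal-like cells and, over both libraries, least abundant in B-like cells. The 14 genes summed to 5709 CPM in HAMS and 2834 CPM in HAMSAB endothelial-like cells, and to 3302 and 3321 CPM in beta-like cells. Ductal-like cells held 3443 and 2680 CPM, delta-like cells 2224 and 2145 CPM, alpha-like cells 1884 and 1701 CPM and macrophage-like cells 1863 and 1559 CPM. In T-like cells the sum was 671 and 638 CPM, and in B-like cells 377 and 393 CPM. Alpha-like, beta-like and delta-like cells thus carried more GTPase RNA per UMI than T-like and B-like cells did in both libraries. The smallest class, pDC-like cells, had 14 and 11 GTPase UMIs (786 and 333 CPM, the latter below the B-like level of HAMSAB).

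**Figure D1:**
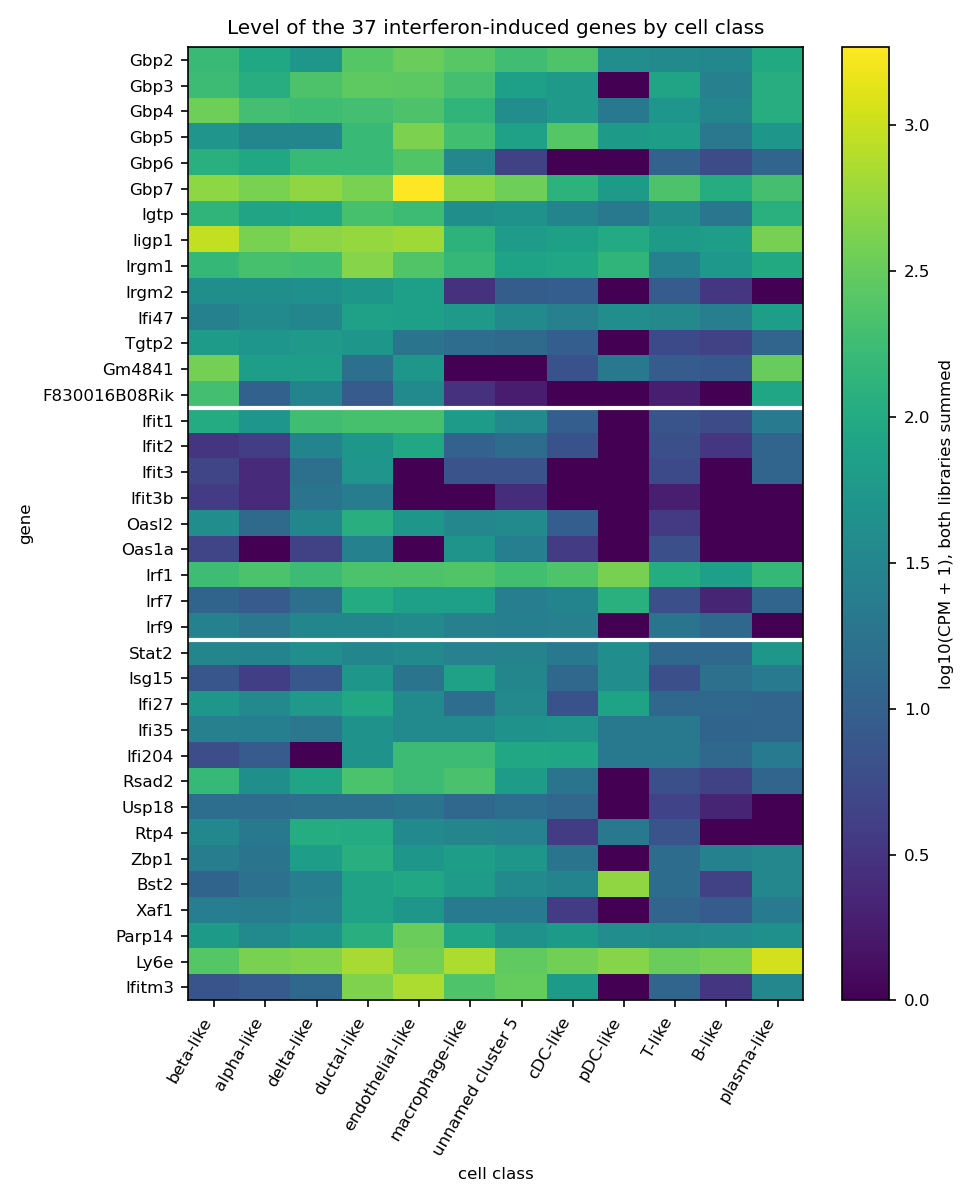
Level of each of the 37 genes (rows, white lines between the GTPases, the Ifit, Oas and Irf genes and the others) in each cell class (columns), as log10 of CPM plus 1 over both libraries. Iigp1, Gm4841 and F830016B08Rik are brightest in beta-like cells among all classes, Gbp7 in endothelial-like cells and Bst2 in pDC-like cells.

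Within the GTPases, Iigp1 or Gbp7 was the leading gene in every class except the cDC-like and pDC-like cells. Iigp1, an Irg GTPase that targets pathogen vacuoles, led in beta-like cells at 934 CPM over both libraries, ahead of Gbp7 (523 CPM) and Gm4841 (386 CPM). It stood at 642 CPM in endothelial-like and 563 CPM in ductal-like cells, but at 59.0 CPM in T-like and 64.4 CPM in B-like cells. Gm4841 and F830016B08Rik, both predicted Irg family members, were highest in beta-like cells. F830016B08Rik stood at 192 CPM there, at 28.7 CPM in delta-like and 9.25 CPM in alpha-like cells, and had 1 UMI in macrophage-like and none in B-like cells. Gm4841 stood at 64.7 CPM in alpha-like and 64.2 CPM in delta-like cells and had no UMI in macrophage-like cells, where a count of 0, taken to allow up to 3 UMIs, allows up to 13.0 CPM in HAMS and 10.7 CPM in HAMSAB.

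Gm4841 also reached 320 CPM in plasma-like cells, where its 28 UMIs in HAMSAB came from 3 cells, and F830016B08Rik had 8 UMIs there, all in HAMSAB. Ins1 and Ins2 stood at 30026 CPM in HAMS and 25373 CPM in HAMSAB plasma-like cells, above every other class outside the beta-like cells.

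Gbp7, a guanylate-binding protein of the chromosome 3 group, was the leading GTPase in alpha-like (413 CPM), delta-like (532 CPM), macrophage-like (485 CPM), T-like (229 CPM) and B-like cells (103 CPM) and in cluster 5 (350 CPM). Its level in endothelial-like cells, 1857 CPM, was 3.49-fold above that in the next class, delta-like cells, and the counting intervals did not overlap. In alpha-like cells Iigp1 (410 CPM) and Irgm1 (207 CPM) followed, and in delta-like cells Iigp1 (507 CPM) and Gbp3 (223 CPM). Ductal-like cells were led by Iigp1, Irgm1 (468 CPM) and Gbp7 (411 CPM), and endothelial-like cells by Gbp7, Iigp1 and Gbp5 (417 CPM). Irgm1, an Irg protein that restrains the other Irg GTPases, had its highest level in the ductal-like cells.

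Gbp genes led in most immune classes. Macrophage-like cells were led by Gbp7, Gbp2 (262 CPM) and Gbp3 (199 CPM), and cDC-like cells by Gbp5 (253 CPM), Gbp2 (233 CPM) and Gbp7 (131 CPM). Gbp5 promotes inflammasome assembly in macrophages. After Gbp7 came Gbp3 (80.1 CPM) and Gbp5 (64.3 CPM) in T-like cells, Iigp1 (64.4 CPM) and Irgm1 (54.0 CPM) in B-like cells, and Gbp2 (184 CPM) and Irgm1 (77.5 CPM) in cluster 5. In pDC-like cells Irgm1 (138 CPM), Iigp1 (98.4 CPM) and Gbp7 (59.0 CPM) led, and in plasma-like cells Iigp1 (395 CPM), Gm4841 and Gbp7 (203 CPM). Gbp2 (330 CPM) was highest in endothelial-like and Gbp3 (289 CPM) in ductal-like cells. Of the remaining GTPases, Gbp4 (354 CPM) and Tgtp2 (61.9 CPM) were highest in beta-like cells, Gbp6 (243 CPM) and Irgm2 (69.4 CPM) in endothelial-like cells, and Igtp (206 CPM) and Ifi47 (72.3 CPM) in ductal-like cells.

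The Ifit, Oas and Irf genes were scarcer, and Irf1 and Ifit1 held most of their UMIs in the endocrine cells. Irf1, which drives many interferon gamma targets including Gbp genes, was the leading gene of this group in every named class except the delta-like cells, and also in cluster 5. Its level ran from 69.0 CPM in B-like to 242 CPM in macrophage-like and 393 CPM in pDC-like cells. In delta-like cells Ifit1 (183 CPM) stood beside Irf1 (172 CPM), followed by Oasl2 (30.4 CPM). In beta-like cells Irf1 (177 CPM), Ifit1 (101 CPM) and Oasl2 (38.6 CPM) led, and in alpha-like cells Irf1 (222 CPM), Ifit1 (50.9 CPM) and Irf9 (18.5 CPM). Irf7, the amplifier of type I interferon production, was highest in pDC-like (118 CPM, from 6 UMIs) and ductal-like cells (103 CPM), followed by endothelial-like (69.4 CPM, from 4 UMIs) and macrophage-like cells (68.4 CPM).

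Ductal-like and endothelial-like cells had the highest sums of this group, 826 and 677 CPM. Ifit1 stood at 206 and 208 CPM in them, and Irf1 at 221 and 226 CPM. Oasl2 reached 114 CPM and Ifit3 49.5 CPM in ductal-like cells, and Ifit2 reached 86.8 CPM in endothelial-like cells. Oas1a was highest in macrophage-like cells at 48.8 CPM, where Irf1, Irf7 and Ifit1 (60.6 CPM) led. In lymphocytes Irf1 stood nearly alone, at 105 CPM in T-like cells against 17.6 CPM for Irf9 and 6.16 CPM for Ifit1. Ifit2, Ifit3 and Ifit3b passed the minimum of 20 UMIs in no class.

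Among the other genes Ly6e, a membrane protein that blocks entry of coronaviruses, was the most abundant in most classes, from 256 CPM in beta-like to 741 CPM in macrophage-like and 1100 CPM in plasma-like cells. Ifitm3, which blocks viral fusion, led in endothelial-like cells (729 CPM) and cluster 5 (313 CPM) and followed Ly6e in ductal-like (426 CPM) and macrophage-like cells (231 CPM). In beta-like cells it had 8 UMIs in HAMS and 3 in HAMSAB. Rsad2, the antiviral enzyme viperin, stood at 221 CPM in ductal-like, 213 CPM in macrophage-like and 153 CPM in beta-like cells. Bst2, also called tetherin and a known surface protein of mouse pDCs, reached 531 CPM in pDC-like cells, 6.12-fold above the next class. Parp14 was highest in endothelial-like cells (330 CPM), Ifi204 in macrophage-like and endothelial-like cells (both 174 CPM) and Rtp4 in delta-like (105 CPM) and ductal-like cells (103 CPM). Isg15, a ubiquitin-like modifier, was highest in macrophage-like cells at 74.3 CPM. Usp18, which removes it, passed 20 UMIs in beta-like cells alone, with 15 and 11 UMIs.

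Between the diets, the summed GTPase level of beta-like cells was nearly equal, while both other groups were lower in HAMSAB. The log2 ratio of HAMSAB over HAMS was 0.01 for the GTPases (95% interval -0.07 to 0.08), -0.29 for the Ifit, Oas and Irf genes (-0.53 to -0.06; 395 and 323 CPM) and -0.24 for the others (-0.41 to -0.07; 742 and 629 CPM). In macrophage-like cells the summed GTPase ratio was -0.26 (-0.45 to -0.06) and the Ifit, Oas and Irf ratio 0.43 (0.06 to 0.82; 413 and 558 CPM). Single genes did not all follow these signs. Of 9 GTPases with 20 UMIs there, 3 were higher and 6 lower, while 51.0% of all genes were lower. Irf1 held 49.2% of the Ifit, Oas and Irf UMIs and stood at -0.06, while Irf7 stood at 1.98. In cluster 5 the summed ratios had the same signs as in macrophage-like cells, at -0.24 (-0.41 to -0.07) and 0.36 (0.07 to 0.66). Macrophage markers stood at 272 and 488 CPM in that cluster (141 and 333 UMIs; 0.84, 0.55 to 1.14), and their part in its ratios was not tested. Ductal-like cells had a GTPase ratio of -0.36 (-0.58 to -0.14) and an Ifit, Oas and Irf ratio of 0.32, whose interval held 0.

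Endothelial-like cells had a GTPase ratio of -1.01 (-1.45 to -0.59) from 208 and 60 UMIs, beside the difference in insulin RNA given above. In pDC-like cells the ratio was -1.24 from 14 and 11 UMIs (786 and 333 CPM), with an interval that held 0 (-2.52 to 0.0073). For alpha-like cells the GTPase ratio was -0.15, for delta-like -0.05, for T-like -0.07, for cDC-like 0.15 and for B-like 0.06, all with intervals that held 0. In plasma-like cells it was 0.70 (0.05 to 1.40), from 23 and 133 UMIs. Classing each cell by its own markers turned that sign, to -0.27.

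**Figure D2:**
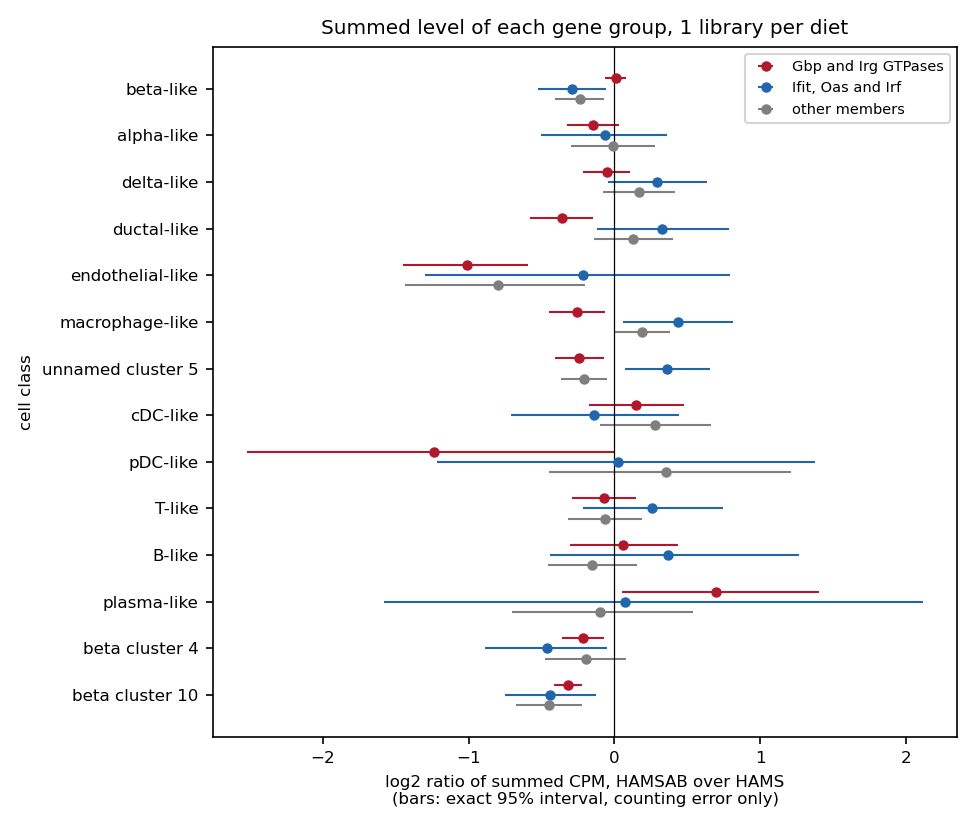
Log2 ratio of the summed CPM, HAMSAB over HAMS, for each gene group (colour) in each cell class and in the separate beta-like clusters. Points are ratios from 1 library per diet and bars are exact 95% intervals of counting error. The GTPase point lies near 0 for all beta-like cells but at -0.21 and -0.32 within clusters 4 and 10.

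The pooled beta-like ratio hid a difference in the mix of clusters. Cluster 10 held 24.6% of the HAMS but 53.1% of the HAMSAB beta-like cells, and its GTPase level was higher than that of cluster 4 in both libraries. Within cluster 4 the GTPases summed to 2588 CPM in HAMS and 2231 CPM in HAMSAB (log2 ratio -0.21, -0.36 to -0.07). Within cluster 10 they summed to 4771 and 3827 CPM (-0.32, -0.41 to -0.22). The median log2 ratio of all genes with 20 UMIs was 0.02 in cluster 4 and -0.08 in cluster 10, where 55.9% of all genes were lower. The 9 immune markers named above stood at 24.9 and 79.7 CPM in cluster 10 (9 and 40 UMIs; 1.68, 0.61 to 2.91) and at 116 and 159 CPM in cluster 4 (86 and 37 UMIs). Ptprc alone had 2 and 17 UMIs in cluster 10 and 17 and 4 in cluster 4, and the part of such RNA was not tested. The Ifit, Oas and Irf genes were lower in HAMSAB within both clusters, at -0.46 (-0.89 to -0.05) and -0.44 (-0.75 to -0.13), and the other genes stood at -0.19 (-0.48 to 0.08) and -0.45 (-0.68 to -0.22).

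Depth differed as well, with a median of 1004 and 1129 UMIs per cell in cluster 10 against 581 and 578 in cluster 4. Ins1 and Ins2 took 73529 CPM of cluster 10 in HAMS and 125662 CPM in HAMSAB. F830016B08Rik and Gm4841 were among the 10 leading genes of cluster 10 although they had no part in the clustering.

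In beta-like cells 28 of the 37 genes reached 20 UMIs, of which 11 were higher and 17 lower in HAMSAB, with a median log2 ratio of -0.17 against 0.01 for all 7691 genes with 20 UMIs. A single gene was at least 2-fold apart, while 8.09% of all genes were. That gene was F830016B08Rik, with 110 CPM in HAMS and 316 CPM in HAMSAB (log2 ratio 1.52, 1.20 to 1.85). Its UMIs came from 76 of 1362 and 102 of 733 cells, and the 5 richest cells held 27.0% and 30.2% of them. Gm4841 was also higher, at 305 and 509 CPM (0.74, 0.52 to 0.96). The higher levels were present within each cluster, at 1.02 and 0.99 for F830016B08Rik and at 0.61 and 0.30 for Gm4841.

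Of the other 12 GTPases in beta-like cells, 5 were higher and 7 lower in HAMSAB, and 48.6% of all genes were lower. Iigp1 stood at 995 CPM in HAMS and 843 CPM in HAMSAB (-0.24, -0.38 to -0.10), and at -0.43 and -0.63 within clusters 4 and 10. Gbp7 stood at 609 and 394 CPM (-0.63, -0.83 to -0.43), and at -1.12 and -0.76 within the clusters. Gbp3 stood at 211 and 114 CPM (-0.88, -1.26 to -0.52), and at -0.84 and -0.93 within them. Gbp4 (0.24) and Gbp6 (0.43) were higher over all beta-like cells, but stood at -0.25 and 0.01 within cluster 10. Both signs turned when cells with 2 or more UMIs of 12 immune markers were left out. That list holds the MHC class II genes Cd74, H2-Aa and H2-Ab1, which interferon gamma also induces. Without these genes in the list neither sign turned. Thinning, in a single random draw, turned the sign of Gbp4. Tgtp2 (0.34), Gbp5 (0.30) and Igtp (0.043) were above 0 with intervals that held it.

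**Figure D3:**
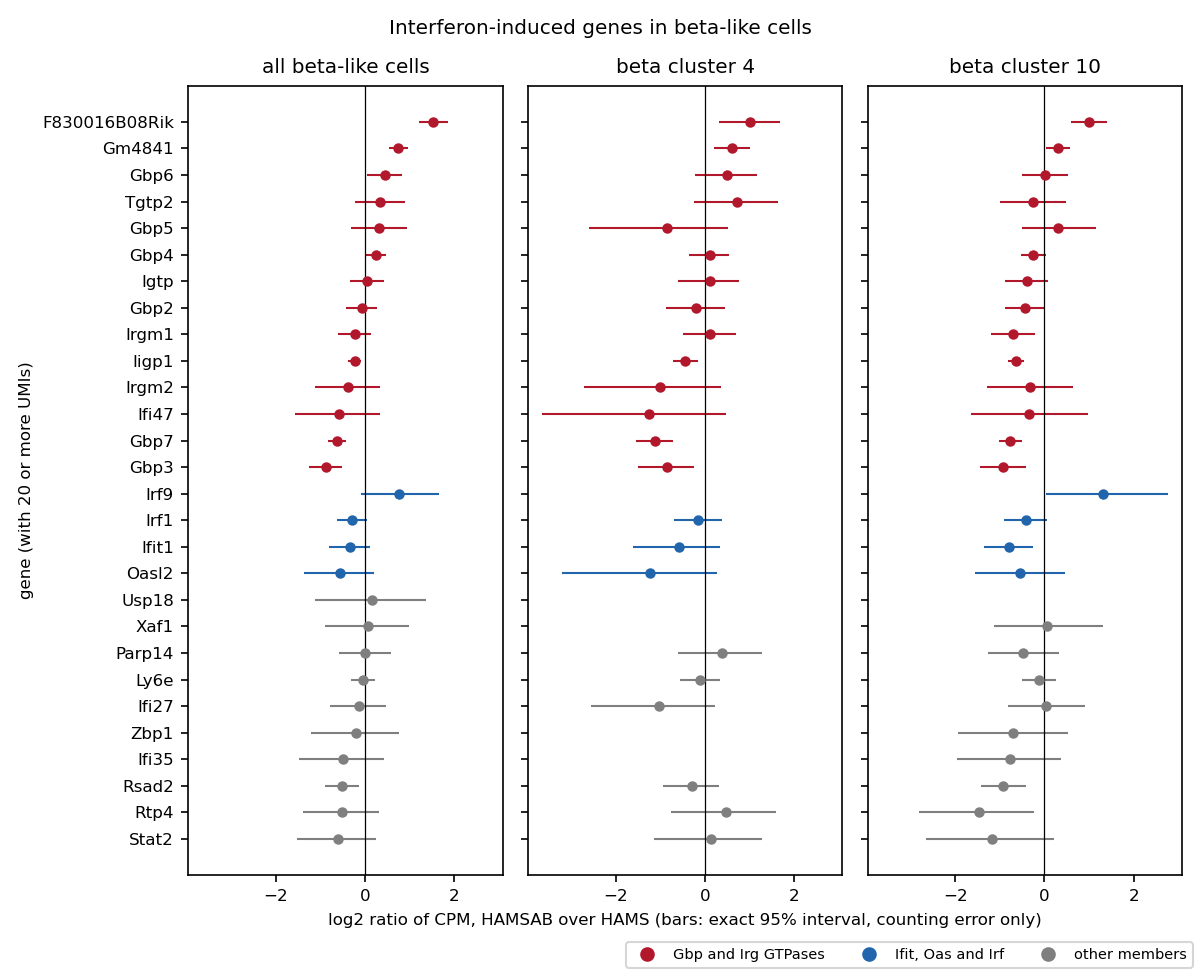
Log2 ratio of CPM, HAMSAB over HAMS, for every gene with 20 or more UMIs in all beta-like cells and in clusters 4 and 10, coloured by gene group, with exact 95% intervals of counting error. F830016B08Rik and Gm4841 lie to the right of 0 in all 3 panels, and Gbp7, Gbp3 and Iigp1 to the left.

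Of the other gene groups in beta-like cells, Rsad2 had an interval that left out 0, with 174 and 121 CPM (-0.52, -0.90 to -0.15). Irf1 stood at 191 and 157 CPM (-0.28, -0.63 to 0.05) and Ifit1 at 110 and 87.1 CPM (-0.34, -0.80 to 0.11). In cluster 10 Ifit1 was lower, at -0.79 (-1.35 to -0.25), and Irgm1 likewise, at -0.70 (-1.19 to -0.20). Irf9 was higher there from 7 and 24 UMIs (1.30, 0.05 to 2.76), and Rtp4 was lower from 18 and 9 UMIs (-1.47, -2.81 to -0.24). Within cluster 10, 3 of 27 genes were 2-fold apart against 8.92% of all genes, and within cluster 4, 5 of 23 against 10.8%. Irf7, with 17 and 2 UMIs, missed the minimum in beta-like cells, and is named because its ratio of -2.50 (-5.65 to -0.42) had the opposite sign to that in macrophage-like cells.

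Cell by cell, GTPase RNA was unevenly spread, and fewer HAMSAB beta-like cells had any. After each cell was thinned to 500 UMIs, 54.7% of 962 HAMS beta-like cells (exact Clopper-Pearson 95% interval 51.5 to 57.9) and 46.1% of 592 HAMSAB cells (42.0 to 50.2) held a GTPase UMI, with 400 and 141 shallower cells left out. Without thinning the shares were 59.4% and 50.2% at median depths of 674 and 811 UMIs. The gap was present in both clusters, at 48.9% and 35.9% in cluster 4 and at 66.6% and 52.3% in cluster 10. Among classes with at least 20 thinned cells in both libraries, B-like cells had the lowest shares, 16.7% and 13.9%. Without thinning the B-like shares were 25.9% and 22.4% at median depths of 893 and 769 UMIs. The unthinned pDC-like shares were lower, 23.5% and 14.7%, at median depths of 473 and 439 UMIs. The T-like shares were 26.1% and 21.6%. In alpha-like cells the shares were 41.3% and 30.7%, in delta-like 47.1% and 43.5%, in ductal-like 62.7% and 52.3% and in macrophage-like 49.2% and 47.7%.

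**Figure D4:**
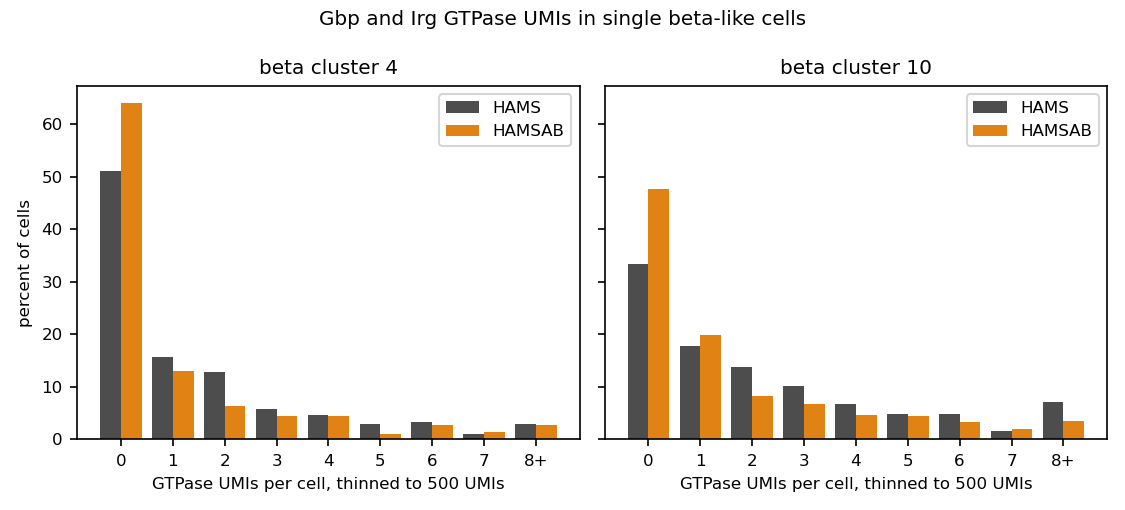
Share of cells (percent, vertical axis) with 0 to 8 or more GTPase UMIs after thinning to 500 UMIs, in beta-like clusters 4 and 10, by diet. The bar at 0 is higher in HAMSAB than in HAMS in both clusters, since 35.9% and 52.3% of HAMSAB cells held a GTPase UMI against 48.9% and 66.6% of HAMS cells.

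The gene groups tended to be found in the same beta-like cells. Among thinned HAMS beta-like cells with an Ifit, Oas or Irf UMI, 71.3% also held a GTPase UMI (63.4 to 78.4, 150 cells), against 51.6% of those without (48.1 to 55.1, 812 cells). The HAMSAB shares were 64.0% (52.1 to 74.8, 75 cells) and 43.5% (39.2 to 47.9, 517 cells). Within cluster 4 the HAMS shares were 63.0% and 46.6%. The HAMSAB intervals there overlapped, at 46.2% (26.6 to 66.6, 26 cells) and 34.5% (27.9 to 41.6). Within cluster 10 the shares were 84.5% and 62.5% in HAMS and 73.5% and 49.1% in HAMSAB. Alpha-like HAMS cells had such a gap too (63.3% and 37.1%), as did delta-like HAMS cells (65.2% and 42.1%). T-like HAMS cells stood at 18.75% (4.05 to 45.6, 16 cells) and 26.5% (21.1 to 32.5, 245 cells). The HAMSAB T-like shares were 30.6% (16.3 to 48.1, 36 cells) and 20.9% (17.5 to 24.7, 511 cells). The T-like intervals overlapped in both libraries, and the signs differed. At most 12 of the 37 genes were seen in 1 thinned HAMS beta-like cell and 11 in a HAMSAB cell, while the median was 1 in both libraries. Cells with 3 or more GTPase UMIs made up 25.2% and 21.5% of thinned beta-like cells.

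Gbp7 was lower in HAMSAB in 9 of the 10 classes where it reached 20 UMIs. Of 1253 genes with 20 UMIs in at least 9 classes, 6.86% were lower in all but at most 1. Besides beta-like cells, it stood at 480 and 291 CPM in alpha-like (-0.72, -1.15 to -0.32), 654 and 367 CPM in delta-like (-0.84, -1.20 to -0.48) and 629 and 314 CPM in ductal-like cells (2.01-fold lower, log2 interval -1.58 to -0.43). Endothelial-like cells had 2388 and 945 CPM (-1.34, -2.12 to -0.62). Of 3620 genes with 20 UMIs in all of the beta-like, alpha-like and delta-like classes, 18.2% were lower in all 3. As low as the beta-like ratio of Gbp7 in all 3 classes were 11, Gbp7 included. That cut was taken from Gbp7 itself, which therefore passes it by construction.

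Smaller ratios for Gbp7 were seen in macrophage-like cells (-0.43, -0.80 to -0.06) and cluster 5 (-0.36, -0.64 to -0.07). In cDC-like (-0.14) and T-like cells (-0.12) the intervals held 0, and in B-like cells the ratio was 0.25 (-0.49 to 1.04). All classes come from the same pair of libraries and are not repeats of the comparison. In cells with at least 500 genes, clustered and named anew, the ratio was -0.27 in alpha-like, -0.21 in delta-like and 0.14 in macrophage-like cells.

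**Figure D5:**
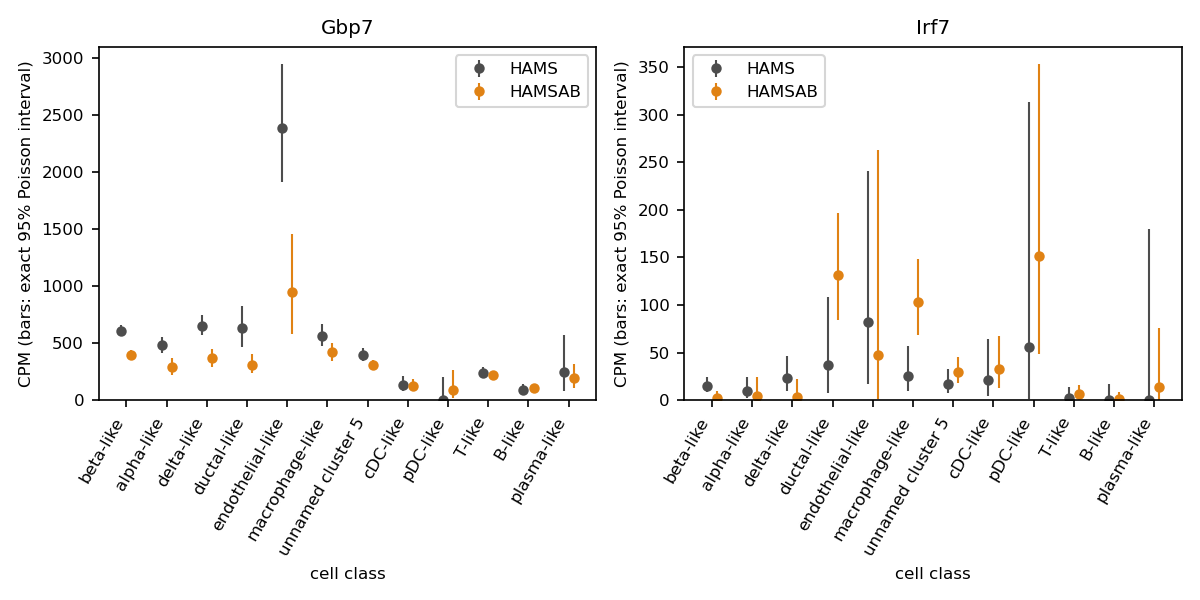
CPM of Gbp7 and Irf7 in each cell class in the HAMS and HAMSAB libraries, with exact 95% Poisson intervals. Gbp7 is lower in HAMSAB in endocrine, ductal-like and endothelial-like cells, and Irf7 is higher in HAMSAB in macrophage-like (26.1 and 103 CPM) and ductal-like cells (3 and 24 UMIs).

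In macrophage-like cells 21 genes reached 20 UMIs, 13 of them higher and 8 lower in HAMSAB, with a median log2 ratio of 0.19 against -0.01 for all genes. Of all 3034 genes there, 49.0% were higher. With a minimum of 50 UMIs 12 of the 37 genes remained, 6 higher and 6 lower, with a median of -0.02. Irf7 had 6 UMIs in HAMS and 29 in HAMSAB (26.1 and 103 CPM; 1.98, 0.69 to 3.54). It and Ifi47, whose interval held 0 (1.10, -0.13 to 2.49), were the genes at least 2-fold apart, while 9.43% of all genes were. Other members of these groups had ratios whose intervals held 0, such as Ifit1 (0.78), Rsad2 (0.33) and Isg15 (0.33) above 0 and Iigp1 (-0.60) and Gbp5 (-0.53) below it. The ratio of Irf7 stayed between 1.41 and 2.61 in the 8 alternatives tried.

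Ductal-like cells had 5 of 22 genes at least 2-fold apart, against 14.6% of all genes. Irf7 was higher (3 and 24 UMIs; 1.83, 0.12 to 4.21), as was Ifitm3 (247 and 506 CPM; 1.04, 0.33 to 1.81). Gbp7 was lower, and Ifi27 (-1.29) and Rtp4 (-1.06) were lower with intervals that held 0. Below 2-fold, Iigp1 stood at 815 and 451 CPM (-0.85, -1.34 to -0.36) and Gbp2 at 358 and 209 CPM (-0.78, -1.51 to -0.03). Beside these values, Ptprc had 0 UMIs in HAMS and 15 in HAMSAB ductal-like cells, and macrophage markers summed to 234 and 473 CPM.

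In T-like cells the sum of GTPase RNA was similar, but 2 genes of the chromosome 3 group went opposite ways. Gbp5 stood at 36.9 and 79.5 CPM (1.11, 0.27 to 2.04), with 3 UMIs at most in any cell, and Gbp3 at 111 and 63.1 CPM (-0.81, -1.44 to -0.18). Gbp5 was the only gene of 15 at least 2-fold apart, against 8.68% of all genes. In delta-like cells Irgm2 was higher from 8 and 17 UMIs (1.53, 0.24 to 2.95), the only one of 20 at least 2-fold apart against 8.28% of all genes. Gbp6 (0.65, 0.05 to 1.26) and Ly6e (0.38, 0.02 to 0.74) were also higher there. In alpha-like cells 1 of 19 genes was at least 2-fold apart, against 9.03% of all genes. It was Gm4841, with 33 and 9 UMIs (-1.01, -2.26 to 0.08), beside the lower insulin RNA of HAMSAB alpha-like cells.

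The remaining classes gave few counts. Endothelial-like cells had 5 genes with 20 UMIs, of which Gbp7 and Ly6e were at least 2-fold apart, against 22.7% of all genes. Ly6e had 21 UMIs in HAMS and 1 in HAMSAB (-3.61, -8.98 to -0.97). Its ratio ran from -4.13 to -0.40 over the 9 alternatives tried. In pDC-like cells Bst2 had 4 and 23 UMIs (1.63, 0.08 to 3.63), 1 of 3 genes against 16.7% of all genes, beside the lower insulin RNA of HAMSAB pDC-like cells. In plasma-like cells Gm4841 had 2 and 28 UMIs (1.97, -0.02 to 5.09), 1 of 3 genes against 19.2%. No gene was 2-fold apart among 12 in cDC-like cells (9.86% of all genes), 28 in cluster 5 (7.95%) or 11 in B-like cells (11.2%). In cDC-like cells Ly6e stood at 292 and 429 CPM (0.56, 0.01 to 1.13), and classing cells by their own markers turned that to -0.05. In cluster 5 Ly6e (-0.35) and Ifitm3 (-0.32) were lower with intervals that left out 0.

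Of 10 interferon genes, the ligands of the pathway, only Ifng and Ifnk had UMIs. Ifng had 8 UMIs in HAMS and 28 in HAMSAB T-like cells (19.7 and 38.4 CPM; 0.97, -0.21 to 2.31), with 0 or 1 UMI per library in each other class. Ifnk, a type I interferon best known from keratinocytes, had 11 and 24 UMIs in macrophage-like cells (0.84, -0.25 to 2.01), 20 and 28 in cluster 5, and 3 and 31 in B-like cells (1.81, 0.13 to 4.16). Its highest level was 334 CPM in pDC-like cells, from 8 and 9 UMIs. The 3' tags of Ifnk were not checked against overlapping transcripts. Ifnb1, the 4 Ifna genes searched for, Ifne, Ifnl2 and Ifnl3 had no UMI in any class, and a count of 0 in T-like cells allows up to 7.37 CPM in HAMS and 4.11 CPM in HAMSAB.

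In beta-like cells 4 of 6 receptor genes reached 20 UMIs, 3 of them higher in HAMSAB, as were 51.4% of all genes. Among the transducers, Stat3 was lower in beta-like (-0.39), alpha-like (-0.67), ductal-like cells (-1.17) and cluster 5 (-0.50), each with an interval that left out 0.

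Ifngr1, a chain of the interferon gamma receptor, was higher in macrophage-like cells (113 and 220 CPM; 0.96, 0.28 to 1.68) and cluster 5 (415 and 554 CPM; 0.42, 0.17 to 0.67), and Ifngr2 in T-like cells from 5 and 31 UMIs (1.79, 0.42 to 3.51). Socs1, which blocks Jak kinases downstream of interferon receptors, was higher in macrophage-like cells (5 and 27 UMIs; 2.14, 0.75 to 3.88), T-like cells (17 and 90 UMIs; 1.56, 0.80 to 2.40) and cluster 5 (30 and 76 UMIs; 0.94, 0.32 to 1.61). Socs3 was lower in cDC-like cells (-1.54, -2.59 to -0.55) and beta-like cells (-0.57, -1.05 to -0.10) and higher in T-like cells (0.88, 0.07 to 1.75).

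Among 32 further interferon-induced genes, of which 29 are listed in the matrices, 18 reached 20 UMIs in beta-like cells, 7 higher and 11 lower in HAMSAB, with none at least 2-fold apart and a median log2 ratio of -0.20. Of all genes there, 48.6% were lower, 8.09% were at least 2-fold apart and the median was 0.0059. Nlrc5, which activates MHC class I genes, stood at 148 and 110 CPM there (-0.43, -0.83 to -0.03). In macrophage-like cells 10 of 14 were higher, with a median of 0.17, against 49.0% and a median of -0.01 for all genes. Cxcl10, an interferon-induced chemokine that attracts T cells, stood at 197 and 180 CPM in beta-like cells (-0.13, -0.46 to 0.19) but was higher in alpha-like cells (0.75, 0.17 to 1.33), T-like cells (1.16, 0.51 to 1.85) and cluster 5 (0.60, 0.23 to 0.98), and lower in cDC-like cells (-1.34, -2.20 to -0.51). The MHC class II genes Cd74, H2-Aa and H2-Ab1, which interferon gamma also induces, summed to 1048 and 858 CPM in beta-like cells (-0.29, -0.43 to -0.15). In ductal-like cells they summed to 5788 and 5266 CPM (-0.14, -0.30 to 0.03). Alpha-like cells held 1898 and 2049 CPM (0.11, -0.06 to 0.28), and delta-like cells 2110 and 2826 CPM (0.42, 0.27 to 0.57).

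The authors' deposited tables of diet comparisons between cells listed 2 of the 37 genes, with HAMSAB as the side named. In the authors' deposited table for beta cells, Iigp1 had a log2 fold change of -0.26 and an adjusted p-value of 1, computed over cells. In the authors' deposited table for delta cells, Gbp7 had a log2 fold change of -0.92 and an adjusted p-value of 1. None of the 37 genes was in the authors' other 6 deposited tables.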

How the data were processed

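Droplet single-cell RNA was measured in 1 library per diet with a Chromium 3' kit, per the labels' protocols. The deposited values are raw counts of UMIs, written by Cell Ranger 5.0.0 per the file headers. The submitters' processing notes name the builds mm10 and GRCm38 and, as a tool, Seurat. The authors' 8 deposited tables give log2 fold changes and p-values computed over cells, by a test the sources used here do not name. Library totals were 3599756 and 4254040 UMIs.

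Barcodes under 200 genes or above 20% mitochondrial UMIs were left out. Both libraries were clustered together in scanpy 1.11.5 (2000 variable genes without interferon genes, 30 principal components, 15 neighbours, Leiden resolution 1 in igraph 0.11.9). A cluster took the class with the highest marker score among those with at least 3 markers seen in at least 5% of its cells, if its 10 leading genes held a marker of that class, or 75% of them were detected, and no more markers of another class. This rule was revised once after the genes of the clusters were seen: its earlier form scored clusters 3 and 5 highest for mast cells on 1 detected marker and left both unnamed, and under the revised form cluster 3 is cDC-like and cluster 5 unnamed. Doublets were not called or removed.

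UMIs were summed per class and library and divided by the class total (CPM). CPM is not scaled by gene length, so it does not rank RNA abundance between genes beyond captured molecules. Poisson (CPM), conditional binomial (ratios) and Clopper-Pearson (shares) 95% intervals are exact, cover counting error only and are too narrow where few cells hold many UMIs. A ratio needed 20 UMIs, both libraries together. The code was tested on simulated data. Named are the 3 genes of each group with the highest CPM per class, every gene at least 2-fold apart whose interval leaves out 0, and those in the authors' tables. Further values, the promoters shown and the comparison of Gbp7 with all genes were chosen after they were seen. The 37 genes, lists and markers were chosen with earlier results of these data known. Alternatives changed the gene minimum per cell, weighting, thinning, clustering, naming, denominator, centring, UMI minimum and cells with immune markers. One gene of the list of signal transducers is not reported here.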

Additional observations from a re-analysis of the deposited data

How the results depend on the processing

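With 1 library per diet, replicates could not be left out. No paired analysis was possible because each diet has 1 library. Of the alternative values for group ratios, medians and counts, 312 stayed within the counting interval or within 1.5-fold of the reported count, 41 moved further and 1 turned the sign of a ratio whose interval left out 0. Of 288 alternative values of the group ratios 38 turned sign, 5 of 10 for the GTPases of beta-like cells, whose ratio is near 0. Cells with at least 500 genes were clustered and named anew, so the make-up of the classes changed as well. The beta-like class then took in a cluster led by Ppy and Pyy (93 HAMS and 24 HAMSAB cells). Another cluster led by these genes (25 and 16 cells) stayed unnamed. In cells with at least 500 genes the GTPase log2 ratio was 0.10 in beta-like, 0.058 in alpha-like, 0.29 in delta-like, -0.60 in ductal-like and 0.45 in B-like cells. The Ifit, Oas and Irf ratio of macrophage-like cells was 0.82, and that of the other genes 0.54 there and 0.36 in alpha-like cells. Medians were 0.41 in macrophage-like and 0.32 in B-like cells, and the genes at least 2-fold apart numbered 2 in beta-like, 0 in alpha-like, 0 in delta-like, 2 in ductal-like and 4 in T-like cells. With a minimum of 50 UMIs they numbered 0 in alpha-like, delta-like, macrophage-like, pDC-like and plasma-like, 2 in ductal-like and 1 in endothelial-like cells, since fewer genes entered. With each cell weighted equally the beta-like GTPase ratio was -0.17. Thinning to 500 UMIs, in a single random draw, gave GTPase ratios of -0.15 in beta-like, -0.31 in T-like and -0.36 in B-like cells. That draw also gave -0.58 for the Ifit, Oas and Irf genes and -0.13 for Gbp4 in beta-like cells. Ratios of the other genes were 0.75 in cDC-like cells and -0.043 in cluster 5. The separate draw used for shares of cells had means of 1.77 and 1.49 GTPase UMIs per HAMS and HAMSAB beta-like cell. For B-like cells these means were 0.213 and 0.193, and for T-like cells 0.391 and 0.324. Its means of Ifit, Oas and Irf UMIs in beta-like cells were 0.189 and 0.150. Thinned values thus vary with the draw, by an amount that was not tested.

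Leaving out cells with 2 or more UMIs of 12 immune markers, class II genes among them, gave beta-like ratios of -0.39 (GTPases), -0.59 (Ifit, Oas and Irf) and -0.41 (others), GTPase ratios of -0.57 in alpha-like and -0.46 in delta-like cells, and an Ifit, Oas and Irf ratio of -0.050 in delta-like cells. Gbp4 and Gbp6 then stood at -0.26 and -0.086 in beta-like cells. Without the class II genes Cd74, H2-Aa and H2-Ab1 in that list, an alternative added after the data were seen, the beta-like ratios were -0.03, -0.27 and -0.24, and 1346 of 1362 and 717 of 733 cells remained, against 1187 and 636 with them. Classing each cell by its own markers gave GTPase ratios of 0.042 in alpha-like, -1.52 in endothelial-like, -0.31 in cDC-like and -0.27 in plasma-like cells, and ratios of the other genes of 0.47 in ductal-like, -0.26 in cDC-like and -0.32 in T-like cells. By the same classing Ly6e stood at -0.048 in cDC-like cells, and Gbp7 stood at 0.14 in macrophage-like cells with at least 500 genes. The causes were not tested. In beta-like cells Gbp7, Gbp3, Iigp1, Rsad2, Gm4841 and F830016B08Rik kept their signs in all 10 alternatives, also added after the data were seen. The gap in beta-like cells with a GTPase UMI was -8.56 percentage points and ran from -12.6 to -7.49 over 3 alternatives.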

Other observations

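The alpha-like clusters 0 and 2, the latter led by the peptide hormone genes Ppy and Pyy, had similar GTPase levels, at 1826 and 2079 CPM in HAMS and 1646 and 1981 CPM in HAMSAB. Iigp1 stood at 371 and 359 CPM in cluster 0, and at 496 and 782 CPM in cluster 2 from 47 and 30 UMIs. The GTPase log2 ratios were -0.15 (-0.35 to 0.05) and -0.07 (-0.47 to 0.32).

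Cxcl9, an interferon gamma-induced chemokine that attracts T cells, stood at 1530 and 1238 CPM in ductal-like cells (log2 ratio -0.31, -0.63 to 0.02) and at 1559 and 1645 CPM in macrophage-like cells (0.08, -0.13 to 0.28), against 28.9 and 32.7 CPM in beta-like cells. Gbp8, a further Gbp family gene outside the 37, had 26 and 3 UMIs in alpha-like cells (-2.25, -4.62 to -0.55) but 8 and 26 in cluster 5 (1.30, 0.12 to 2.66). Tgtp1, the near-identical neighbour of Tgtp2, had 16 and 5 UMIs in cluster 5 (-2.07, -3.88 to -0.56). These genes were singled out after their values were seen.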
